A study of Mus musculus with 4 samples.

Results

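The 35 genes described here are the enzymes of glycolysis, the transporters of glucose and lactate, the regulators of pyruvate and fructose bisphosphate flux, genes of the hypoxia response, and a creatine kinase and an adenylate kinase. They were chosen by name and role out of 23352 gene entries in the series. Of the 35 genes, 34 had an entry of their own, and Eno1 was listed jointly with the predicted gene Gm5506, so its values hold both. Within the set, 6 genes are isoforms used mainly by skeletal muscle (Slc2a4, Pfkm, Pgam2, Eno3, Ckm and Ak1), and the other 29 are set beside them.

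RNA was sequenced from the Achilles tendon of male mice homozygous for Scx-EGFP, a reporter for the tendon transcription factor Scx on a C57BL/6 background, which all 4 groups carry. Neonates of 7 days and adults of 6 months had either a sham operation (left hindlimb) or an Achilles tenotomy, a transection of the tendon (right hindlimb), and RNA was taken 5 days later. The labels call the tendons of all groups uninjured, so groups follow the operation named. Each group is 1 library from pooled animals: 11 mice for each of the 7-day groups, 5 mice for 6-month sham and 9 mice for 6-month tenotomy. After tenotomy the distal stump was collected without its surrounding connective tissue. The labels do not say that sham tendons were trimmed the same way. Each group being a single pool, nothing is known of the spread among animals, and no difference below has a replicate check. Levels are FPKM (fragments per kilobase of transcript, relative to library size), and the tables of the 2 ages may have been scaled separately, so levels are set across ages side by side only.

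Glycolysis breaks glucose down to pyruvate in the cytosol and yields ATP without oxygen; lactate dehydrogenase then turns pyruvate into lactate and restores the cofactor that the pathway needs. Skeletal muscle uses its own isoforms for several of the steps and buffers ATP with creatine kinase, whereas proliferating and immune cells rely on the widely expressed isoforms. Hypoxia-inducible factors are held low by oxygen-dependent prolyl hydroxylases, and when oxygen is short they raise transcription of most glycolytic genes. Tendon is a poorly vascularised tissue whose cells are known to draw much of their energy from glycolysis.

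Muscle transcripts differed between the libraries, and their part in the results below was not tested. In neonates, 25 mature muscle markers held 6.30% of all FPKM outside small RNAs after sham and 0.0164% after tenotomy. In adults their part was 13.8% and 5.38%. At both ages 25 of 25 were at least 2-fold lower after tenotomy, and 3 of them were listed at 0 in the 7-day tenotomy library. Of all entries at 5 FPKM or more in either library, 10.3% at 7 days and 11.9% at 6 months were at least 2-fold lower. The 11 macrophage markers found held 0.124% and 0.347% after sham and tenotomy in neonates, and 0.150% and 0.727% in adults. Tendon markers, among them Scx, Tnmd and Col1a1, were present throughout, with 9.25% and 6.32% in neonates and 3.09% and 3.28% in adults, most of it Col1a1 and Col1a2. At 6 months 4 of 8 tendon markers were at least 2-fold lower after tenotomy (Scx, Mkx, Fmod and Comp, with Scx at 15.9 and 5.70 FPKM). At 7 days 1 of 8 was lower by as much (Fmod) and 1 higher (Thbs4). The Scx entry spans a locus far longer than the gene, so reads of neighbours may be in its values. In such bulk samples, fewer cells of a type and less RNA per cell cannot be told apart. Depth, inferred from the steps between low values, was about 1780000 to 3260000 fragments, which puts about 17.8 to 32.6 fragments behind 5 FPKM on a 2 kb transcript.

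At both ages more members were called lower than higher after tenotomy, among them all 6 muscle isoforms, while Hif1a was higher. Ratios are log2((tenotomy FPKM + 1)/(sham FPKM + 1)), and a gene at or above 5 FPKM in either library with a ratio of at least 2-fold is called higher or lower; this scale understates differences of low genes. In neonates 31 members reached that floor, of which 13 were lower, 2 higher and 16 within 2-fold. Among all 9424 entries at the floor at 7 days, 10.3% were lower and 5.55% higher. In adults 32 members reached the floor, of which 16 were lower, 2 higher and 14 within 2-fold, beside 11.9% lower and 9.62% higher among 9001 entries. With both libraries scaled to an equal FPKM total, the 7-day background split became 753 higher and 813 lower in place of 523 and 973. When it was rescaled without muscle genes and small RNAs, the 6-month split became 1173 higher and 759 lower in place of 866 and 1067. The median ratio over the members at the floor was -0.75 at 7 days and -0.96 at 6 months, beside 0.01 and -0.03 over all entries at the floor. In the authors' deposited table, 3 members were called significant at 7 days, all lower, where 0.859% of 10476 tested entries were called; they were Ak1 (q = 0.0426), Pfkm (q = 0.0466) and Eno3 (q = 0.0466). No member and no other entry was called there at 6 months (0 of 8897).

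**Figure D1:**
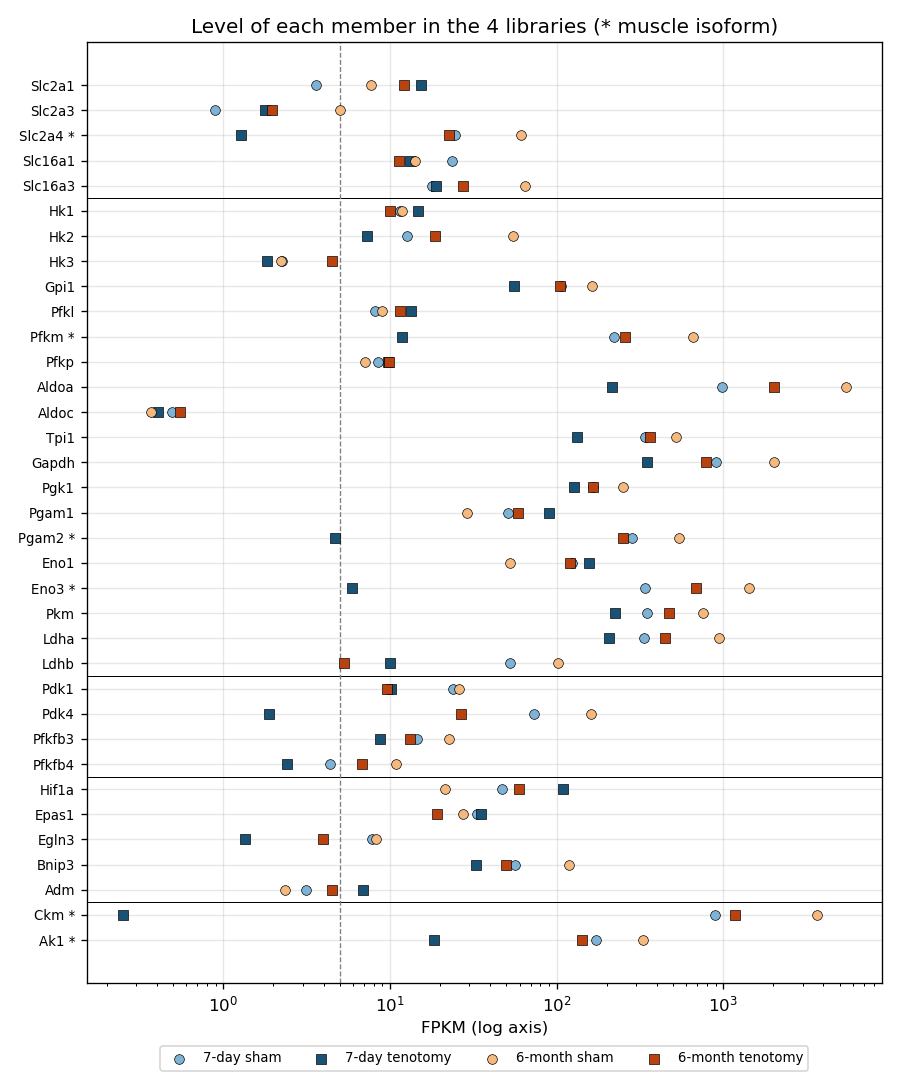
FPKM on a log axis of the 35 members in the 4 libraries, grouped by role, with the 5 FPKM floor as a dashed line and muscle isoforms starred. Circles are sham and squares tenotomy; the 7-day tenotomy squares of the 6 muscle isoforms lie far left of the other libraries, with Ckm at 0.250 FPKM.

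Ckm, Pgam2 and Eno3 had the lowest 7-day ratios of the set. Ckm, the cytosolic creatine kinase of muscle (chr7:19411094-19421583, mm10), stood at 892 FPKM in the 7-day sham library and 0.250 FPKM in the 7-day tenotomy library, and at 3669 and 1171 FPKM at 6 months. The 7-day tenotomy value rests on about 2 fragments, with a 95% exact Poisson interval of 0.0292 to 0.872 FPKM that covers counting error only; it was 0.0280% of the sham level (0.00328% to 0.0978%). Ckm was thus nearly absent from the injured neonatal stump and still abundant in the injured adult stump. In the authors' deposited table it was not called at 7 days (q = 0.998).

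Pgam2, the muscle phosphoglycerate mutase (chr11:5801637-5803796), stood at 284 and 4.70 FPKM after sham and tenotomy at 7 days, and at 542 and 250.5 FPKM at 6 months. Eno3, the muscle enolase (chr11:70657176-70662513), stood at 340.4 and 5.93 FPKM at 7 days, and at 1435 and 688 FPKM at 6 months. Pfkm, the muscle phosphofructokinase, stood at 222 and 11.8 FPKM at 7 days, and at 658 and 258 FPKM at 6 months. Its entry was listed at chr15:98038744-98132447, with no promoter window found within 1000 bases of its start. This span may exceed the gene and hold reads of neighbours. On the ratio scale Pfkm was 17.5-fold and Eno3 49.3-fold lower in neonates, against 2.54-fold and 2.08-fold in adults.

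Ak1, the cytosolic adenylate kinase that muscle uses to balance adenine nucleotides, stood at 172 and 18.4 FPKM at 7 days and at 332 and 143 FPKM at 6 months. Slc2a4 (chr11:69942286-69948190) encodes the insulin-responsive glucose transporter of muscle and fat, and stood at 24.5 and 1.28 FPKM at 7 days and at 61.4 and 22.6 FPKM at 6 months. Adipocyte markers, which share Slc2a4 with muscle, summed to 42.5% of their sham level at 7 days and 127% at 6 months. Slc2a4 itself kept 5.22% and 36.8%. The adipocyte list was mixed at 6 months, with 5 of 7 markers above sham and 2 below (Lpl at 33.5% and Cidec at 86.5%). The Cfd entry in these sums spans a locus far longer than the gene. The part of fat in the Slc2a4 levels was not tested.

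Taken as a list, 6 of 6 muscle isoforms were lower at both ages, beside 10.3% and 11.9% of all entries at the floor. Their median log2 ratio was -4.88 at 7 days and -1.28 at 6 months. The 29 other members had medians of -0.69 and -0.66 over those at the floor, and -0.63 and -0.61 over all 29. As a fraction of sham, the summed FPKM of the muscle isoforms was 2.19% at 7 days and 37.8% at 6 months, while the summed muscle markers kept 0.236% and 30.9%. Their levels thus moved in the same direction as the muscle markers at both ages, and the part of muscle tissue in the pools was not tested.

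**Figure D2:**
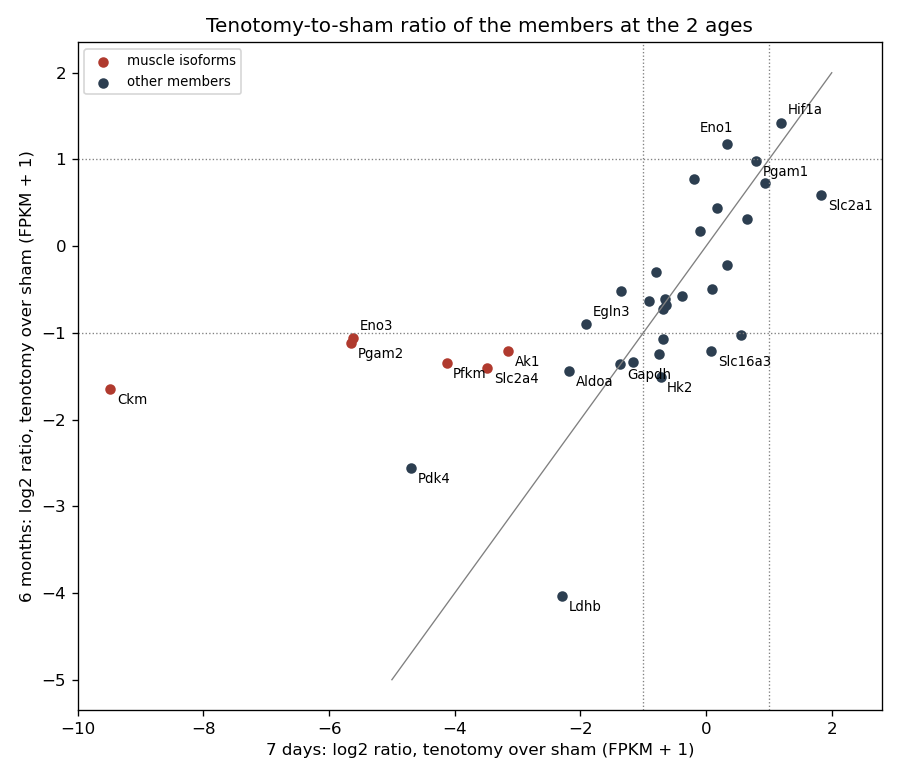
Log2 ratio of tenotomy over sham at 7 days (x axis) against 6 months (y axis) for the 35 members, with dotted lines at 2-fold and a solid line of equal ratios. The 6 muscle isoforms spread from -3.15 to -9.48 along the x axis but lie between -1.06 and -1.65 on the y axis, whereas Ldhb lies below the line at -2.29 and -4.03.

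The isozyme make-up of a step does not depend on how a library is scaled, so it was compared within each library as the share of the summed FPKM. Enolase FPKM came from Eno3 to 73.2% in the 7-day sham library, 3.64% after neonatal tenotomy, 96.5% in the 6-month sham library and 85.1% after adult tenotomy. For phosphoglycerate mutase, the Pgam2 share was 84.7%, 4.98%, 94.9% and 81.0% in the same order. Phosphofructokinase kept a larger muscle share in the neonatal stump, with Pfkm at 93.0%, 33.7%, 97.6% and 92.4%.

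Thus the neonatal tenotomy library was the only one of the 4 in which the widely expressed isozymes supplied most of these steps. The same held for glucose transporters and creatine kinases. Slc2a4 made up 84.4%, 6.92%, 82.8% and 61.6% of the FPKM of Slc2a1, Slc2a3 and Slc2a4. Ckm made up 92.2%, 0.565%, 99.6% and 97.9% of Ckm and Ckb, where Ckb, the brain-type creatine kinase gene, stood at 75.9, 43.9, 16.0 and 25.7 FPKM. Hk2, the insulin-regulated hexokinase of muscle and of growing cells, made up 47.9%, 30.4%, 79.6% and 56.1% of the 3 hexokinase genes. Aldolase was different, because Aldoc, the brain form, was near 0 in all libraries (0.369 to 0.547 FPKM, or about 2 to 3 fragments), and Aldoa supplied the step throughout.

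**Figure D3:**
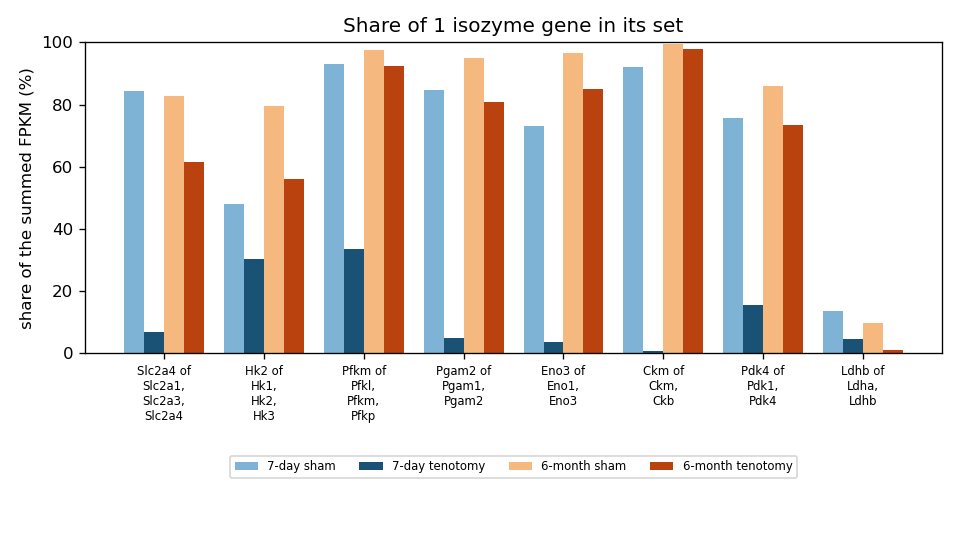
Share in percent of 1 isozyme gene in the summed FPKM of its set, for 8 sets, with 1 bar for each library. The 7-day tenotomy bar is the lowest of the 4 in every set but that of Ldhb, where the 6-month tenotomy bar is lowest at 1.16%.

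The widely expressed partners of these isozymes did not share the large differences. Pgam1, the mutase of most tissues (chr19:41911871-41918665), stood at 51.4 and 89.6 FPKM at 7 days and at 29.2 and 58.9 FPKM at 6 months, which was 1.73-fold and 1.98-fold higher on the ratio scale. The joint Eno1 entry (chr4:150237197-150248873), the enolase of most tissues, stood at 125 and 157 FPKM at 7 days and at 52.4 and 120.2 FPKM at 6 months, where it was called higher (2.27-fold). Pfkl, the liver-type phosphofructokinase, stood at 8.18 and 13.4 FPKM at 7 days and at 9.00 and 11.5 FPKM at 6 months. Pfkp, the platelet type, stood at 8.49 and 9.75 FPKM and at 7.04 and 9.89 FPKM. Each of these 4 genes was higher in the tenotomy library at both ages as deposited, while its muscle partner was lower. That direction held under the pseudocounts and rescalings tried. Only Eno1 at 6 months was called higher. Pgam1 at 6 months lay at the threshold, at 202% of sham without a pseudocount, 1.98-fold with 1 FPKM added, and log2 ratios of 1.04 to 1.17 under 3 rescalings. Reads from processed copies of such abundant genes cannot be told apart from the values here, since the labels do not say how shared reads were counted.

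The promoters of a muscle isozyme and of its widely expressed partner, and those of a lactate enzyme and a hypoxia gene of the set, are shown as examples. The ratios did not set all of these genes apart, since Pgam2, Ldha and Bnip3 were all called lower at 6 months. Each is the 250 bases before the transcription start in RefSeq (GRCm38.p6), read 5′ to 3′ on the strand of the gene. In Pgam2 the capitals mark E-boxes (CANNTG, the sites of myogenic and other basic helix-loop-helix factors) and a match to a widened MEF2 motif, named for the muscle factor MEF2. In the other promoters they mark the core of the hypoxia response element (ACGTG or GCGTG), with both strands searched. A palindromic match such as cacgtg counts on each strand and is also an E-box.
Pgam2 (chr11:5803797-5804046, minus strand): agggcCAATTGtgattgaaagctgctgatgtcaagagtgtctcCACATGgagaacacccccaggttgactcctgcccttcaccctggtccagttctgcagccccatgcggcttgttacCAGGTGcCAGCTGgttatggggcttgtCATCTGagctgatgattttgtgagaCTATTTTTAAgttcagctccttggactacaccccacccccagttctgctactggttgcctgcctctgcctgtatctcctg
Pgam1 (chr19:41911621-41911870, plus strand): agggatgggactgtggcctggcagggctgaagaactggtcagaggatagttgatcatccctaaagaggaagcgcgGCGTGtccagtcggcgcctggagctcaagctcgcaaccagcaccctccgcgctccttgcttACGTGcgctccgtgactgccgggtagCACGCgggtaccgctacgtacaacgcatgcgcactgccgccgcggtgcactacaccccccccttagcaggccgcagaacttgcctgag
Ldha (chr7:46845554-46845803, plus strand): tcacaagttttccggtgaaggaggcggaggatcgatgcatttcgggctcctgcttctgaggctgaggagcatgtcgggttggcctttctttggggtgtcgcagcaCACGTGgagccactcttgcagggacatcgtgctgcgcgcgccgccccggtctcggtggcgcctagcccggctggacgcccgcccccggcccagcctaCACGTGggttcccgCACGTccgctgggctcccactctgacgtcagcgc
Bnip3 (chr7:138909507-138909756, minus strand): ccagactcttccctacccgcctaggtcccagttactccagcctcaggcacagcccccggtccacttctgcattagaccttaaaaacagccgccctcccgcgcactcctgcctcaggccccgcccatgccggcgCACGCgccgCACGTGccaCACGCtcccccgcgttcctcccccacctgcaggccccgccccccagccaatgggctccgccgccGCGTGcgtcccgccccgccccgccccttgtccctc
Pgam2 held 5 E-box matches, 1 MEF2 match and 0 hypoxia cores, whereas Pgam1 held 3 hypoxia cores and 0 E-boxes. Ldha and Bnip3 held 5 hypoxia core matches each. These examples are extremes, since Pgam2 had the most E-boxes of the members, and Ldha and Bnip3 the most hypoxia core matches. That count takes a palindrome on each strand, and Ldha holds fewer separate marked stretches than Bnip3. Of the other muscle isoforms with a window, Eno3 and Ckm held 1 hypoxia core and 1 E-box each. Ak1 held 0 hypoxia cores and 3 E-boxes. E-boxes were also in 16 of the 27 windows of the other members, with up to 3 in Pfkl, Gpi1 and Hif1a.

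Of the 35 members, 31 had a promoter window in the table within 1000 bases of the start of their entry. The hypoxia core was in 24 of these 31 windows (77.4%) and in 45.5% of the windows of 14912 genes. Among the other members it was in 22 of 27 windows, and among the muscle isoforms in 2 of 4. E-box matches were in 20 of 31 windows (64.5%) and in 62.0% of all windows. The MEF2 match of Pgam2 was the only one among the members, where 2.66% of all windows held one. A match describes the letters in the window and not the use of a site.

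Along the pathway, hexokinase was the least abundant step in each library and aldolase or GAPDH the most abundant. The 3 hexokinase genes summed to 26.3, 23.8, 68.6 and 33.0 FPKM after sham and tenotomy in neonates and then in adults, the lowest of the 11 steps in all 4 libraries. Aldolase was the highest step in 3 libraries, at 984, 216, 5451 and 2017 FPKM. In the 7-day tenotomy library GAPDH was highest and aldolase only the fourth.

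The steps were unequally low after neonatal tenotomy. Phosphofructokinase kept 14.6% of its sham FPKM, aldolase 21.9% and phosphoglycerate mutase 28.1%. Triosephosphate isomerase and GAPDH kept 38.8% each, pyruvate kinase 64.4%, phosphoglycerate kinase 76.7% and hexokinase 90.4%. Enolase lay between phosphoglycerate mutase and GAPDH. The steps with a muscle isoform in the set (phosphofructokinase, phosphoglycerate mutase and enolase) were thus among the lowest at 7 days. Of the other steps only aldolase, which has none among the 6, lay among them, as second lowest. Aldoa, which supplied that step, is counted as muscle in a wider muscle list made after seeing the data. At 6 months the order differed, with phosphofructokinase at 41.5%, phosphoglycerate mutase at 54.1% and enolase at 54.4% of sham. Aldolase (37.0%), GAPDH (38.9%), lactate dehydrogenase (43.4%) and hexokinase (48.1%) kept less than phosphoglycerate mutase and enolase there. The part of muscle tissue in the order at either age was not tested. Summed over the 19 glycolytic enzymes, FPKM was 4306 after sham and 1641 after tenotomy at 7 days, and 13020.5 and 5798 at 6 months. Relative to all FPKM outside small RNAs these sums came to 1.14%, 0.479%, 3.62% and 2.03%.

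**Figure D4:**
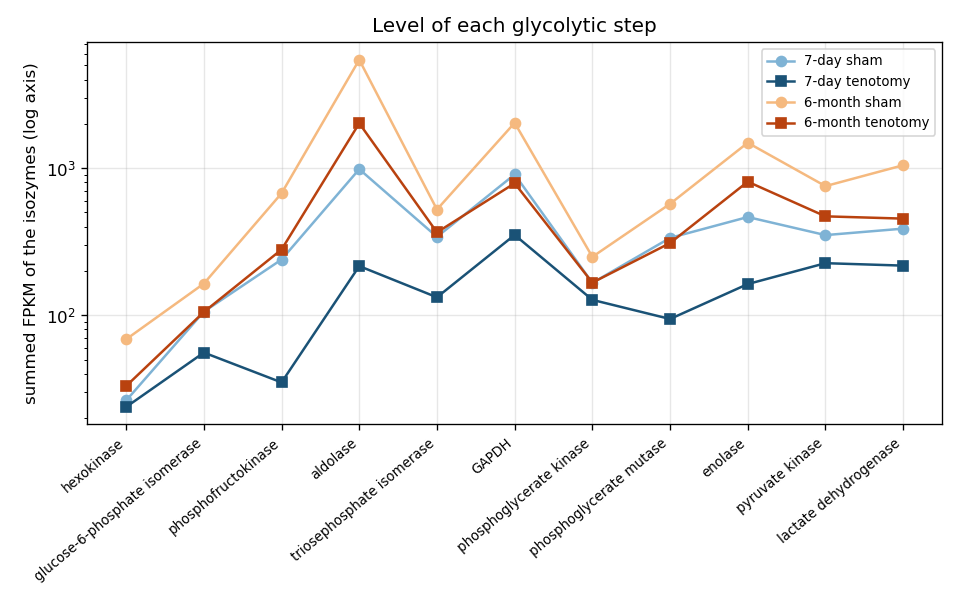
Summed FPKM of the isozymes at each of the 11 steps from hexokinase to lactate dehydrogenase, on a log axis, with 1 line for each library. The 7-day tenotomy line lies lowest at every step and dips at phosphofructokinase (34.9 FPKM), while the 6-month sham line peaks at aldolase (5451 FPKM).

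The abundant enzymes Aldoa and Gapdh were lower at both ages. Aldoa (chr7:126795234-126800447), which cleaves fructose bisphosphate, was the most abundant member of the set in 3 libraries and stood at 983 and 215 FPKM at 7 days and at 5451 and 2016 FPKM at 6 months. Gapdh (chr6:125161852-125165583), the first oxidative step and a common reference gene, stood at 906 and 351 FPKM at 7 days and at 2031 and 789 FPKM at 6 months. Gapdh was 2.57-fold lower after tenotomy at both ages, so it did not hold a constant level across these libraries. Tpi1, which interconverts the triose phosphates, stood at 341 and 132 FPKM at 7 days, where it was lower, and at 523 and 366 FPKM at 6 months, within 2-fold.

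Several other enzymes stayed within 2-fold at both ages. Pkm, pyruvate kinase, stood at 350.5 and 226 FPKM at 7 days and at 754 and 470.04 FPKM at 6 months; its muscle and embryonic splice forms are not separated in gene-level values. Pgk1, the first step that yields ATP, stood at 166 and 127 FPKM and at 249 and 167 FPKM. Gpi1, which makes fructose 6-phosphate, stood at 106 and 55.7 FPKM and at 164 and 105 FPKM. The ubiquitous hexokinase gene Hk1 stood at 11.5 and 14.7 FPKM and at 11.8 and 9.99 FPKM. Hk1 lay close to the same level in all 4 libraries, unlike Hk2, which stood at 12.6 and 7.24 FPKM at 7 days and at 54.6 and 18.5 FPKM at 6 months. Hk3, the hexokinase of myeloid cells, was below the floor in all libraries at 2.24, 1.83, 2.21 and 4.51 FPKM.

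Lactate dehydrogenase was the exception among the paired enzymes, since its less abundant subunit was lower in adults by more than any other member. Ldhb (chr6:142490249-142507943), the subunit of heart and of oxidative muscle, stood at 52.9 and 10.0 FPKM at 7 days and at 102 and 5.27 FPKM at 6 months. Ldha, the subunit that favours lactate formation, stood at 335 and 207 FPKM at 7 days and at 944 and 448 FPKM at 6 months. The log2 ratio of Ldhb was -2.29 in neonates and -4.03 in adults, a difference of 1.74 in the direction opposite to the muscle isoforms. The Ldhb share of both subunits was 13.6%, 4.60%, 9.71% and 1.16%.

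Pdk4 also kept less of its adult sham level than the muscle isoforms did. It encodes a pyruvate dehydrogenase kinase that spares glucose in oxidative muscle, and stood at 73.7 and 1.87 FPKM at 7 days and at 161 and 26.6 FPKM at 6 months. At 6 months Ldhb kept 5.19% and Pdk4 16.5% of the sham level, against 31.9% to 48.0% for the 6 muscle isoforms. Some markers of the muscle list were also low in the 6-month tenotomy library. Myh7, the slow myosin, stood at 341 and 0.563 FPKM and Myl3, a slow light chain, at 649 and 1.17 FPKM, and the 5 slow-fibre genes summed to 5.15% of sham. The other 20 muscle markers summed to 32.1%, with the fast myosin Myh4 at 2962 and 1227 FPKM. Both groups were mixed, since the slow-fibre gene Tnni1 kept 18.3%, while among the others the fast oxidative myosin Myh2 kept 0.593% and Acta1 16.4%. Myoglobin (Mb), the oxygen store of oxidative fibres, stood at 1185 and 33.1 FPKM. This split of the marker list and the markers named were chosen after values were seen, and the part of slow fibres in the Ldhb and Pdk4 levels was not tested. In neonates, slow-fibre and other muscle markers kept 0.490% and 0.219%.

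**Figure D5:**
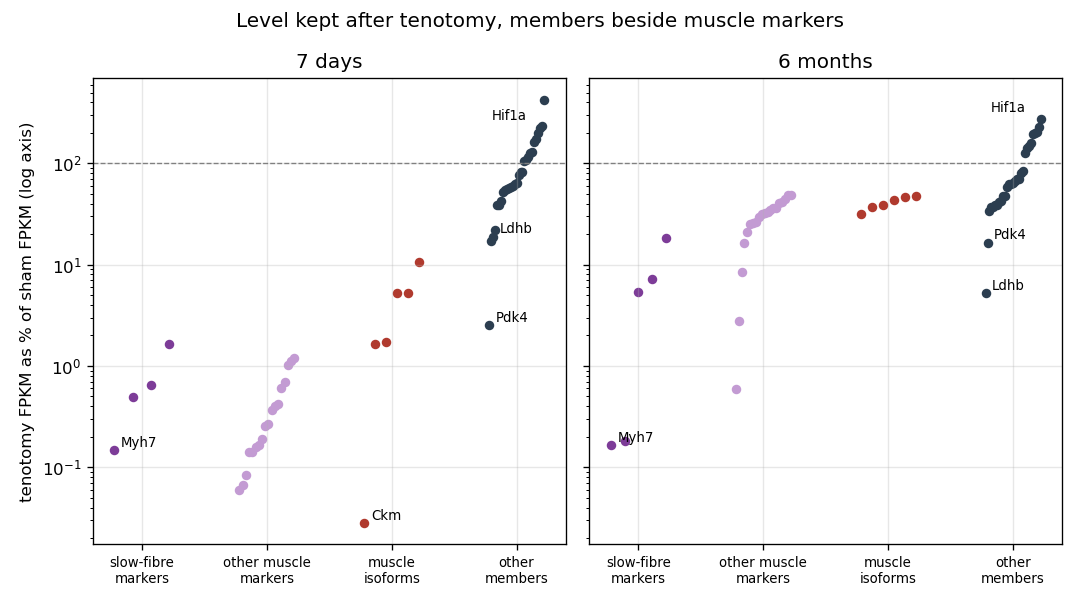
Tenotomy FPKM as a percent of sham FPKM on a log axis at 7 days (left) and 6 months (right) for 5 slow-fibre markers, 20 other muscle markers, 6 muscle isoforms and 29 other members; each point is a gene, the dashed line is 100%, and 3 markers listed at 0 after 7-day tenotomy are not drawn. At 6 months Ldhb (5.19%) and Pdk4 (16.5%) lie below the 6 muscle isoforms, at levels that slow-fibre and a few other muscle markers also show.

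Regulators of flux were lower or within 2-fold. Pdk1, a pyruvate dehydrogenase kinase induced by hypoxia, stood at 23.9 and 10.1 FPKM at 7 days and at 26.0 and 9.67 FPKM at 6 months, lower at both ages. Pfkfb3, which makes the activator fructose 2,6-bisphosphate and is induced in growing and hypoxic cells, stood at 14.6 and 8.71 FPKM and at 22.5 and 13.3 FPKM. Pfkfb4, a related enzyme, stood at 4.37 and 2.41 FPKM and at 10.9 and 6.77 FPKM. Both Pfkfb genes lay within 2-fold or below the floor, with levels under those of sham.

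The widely expressed glucose transporter went against the muscle one. Slc2a1 (chr4:119108745-119137329), the basal glucose transporter of most cells, stood at 3.61 and 15.4 FPKM at 7 days, where it was 3.56-fold higher, and at 7.72 and 12.1 FPKM at 6 months, within 2-fold. Slc2a3, a high-affinity transporter of neurons and leukocytes, stood at 0.895 and 1.78 FPKM at 7 days, under the floor, and at 5.02 and 1.97 FPKM at 6 months, just past 2-fold lower. That call was lost under a larger pseudocount and under each rescaling. Of the lactate transporters, Slc16a1 stood at 23.7 and 13.2 FPKM at 7 days and at 14.1 and 11.3 FPKM at 6 months. Slc16a3, the lactate exporter of glycolytic muscle and of hypoxic cells, stood at 17.8 and 19.0 FPKM at 7 days and at 65.1 and 27.5 FPKM at 6 months, where it was lower.

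Hif1a was higher after tenotomy at both ages, yet Egln3, Bnip3 and Adm, the hypoxia-induced genes grouped with it, did not move with it together. Hif1a (chr12:73907867-73947530), the oxygen-regulated subunit that is controlled mainly as a protein, stood at 47.3 and 109.9 FPKM at 7 days and at 21.6 and 59.6 FPKM at 6 months, 2.30-fold and 2.68-fold higher. Epas1, the related subunit abundant in endothelium, stood at 33.2 and 35.4 FPKM and at 27.4 and 19.2 FPKM, within 2-fold. HIF protein was not measured. Hif1a was the only member called higher at both ages. Macrophage markers were higher in the same libraries, with 8 of 11 called at 7 days and 11 of 11 at 6 months. Over all entries at the floor, 5.55% and 9.62% were called higher at these ages. The part of macrophages in the Hif1a level was not tested.

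Of the hypoxia-induced genes grouped with Hif1a, Egln3, a prolyl hydroxylase of feedback control, stood at 7.83 and 1.35 FPKM at 7 days, where it was lower. At 6 months Egln3 stood at 8.29 and 3.99 FPKM. Bnip3, a mitophagy receptor (chr7:138890836-138909506), stood at 56.3 and 33.0 FPKM at 7 days and at 119 and 49.6 FPKM at 6 months, where it was lower. Adm, the vasodilator peptide adrenomedullin, stood at 3.13 and 6.93 FPKM and at 2.34 and 4.52 FPKM, about 5 to 10 fragments in each sham library, without passing 2-fold at 7 days or the floor at 6 months; rescaled to a common sum it passed 2-fold at 7 days (log2 ratio 1.08). Egln3, Bnip3 and Adm thus ranged from lower to somewhat above sham at both ages. Outside this group, Slc2a1, Pgam1 and Eno1 lay above sham at both ages, while Pdk1, Pfkfb3 and Ldha lay below. Over all members, 11 lay above sham and 24 below at 7 days, and 9 and 26 at 6 months.

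A further list of 18 hypoxia targets outside the set had calls near the background. At 7 days 14 reached the floor, 2 of them higher and 1 lower, with a median of -0.11, and at 6 months 13 did, 1 of them higher and 1 lower, with a median of -0.25. Over all entries 5.55% were higher and 10.3% lower at 7 days, and 9.62% and 11.9% at 6 months. Car9, a carbonic anhydrase often used as a hypoxia marker, stood at 23.2 and 2.42 FPKM in neonates. Ndrg1, a stress-response gene, stood there at 14.1 and 29.3 FPKM, and Lox, the collagen crosslinking enzyme, at 170 and 345 FPKM. Angptl4, an inhibitor of lipoprotein lipase, stood at 12.7 and 60.8 FPKM in adults, and Ddit4, an inhibitor of mTOR signalling, at 65.7 and 26.6 FPKM. Vegfa, the vessel growth factor, stood at 21.4 and 11.6 FPKM at 7 days and at 24.2 and 13.0 FPKM at 6 months, within 2-fold. Among 7 oxygen-sensing genes, 1 of 6 at the floor was lower at 7 days (Hif1an, 24.2 and 7.34 FPKM) and 2 of 6 at 6 months (Egln1, 56.3 and 22.8 FPKM, and Hif1an, 41.7 and 19.2 FPKM); none was called higher.

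Glycogen genes are set beside a background of 10.3% lower and 5.55% higher at 7 days and 11.9% and 9.62% at 6 months. Of 12 glycogen genes, 8 were lower and 1 higher at 7 days (median -1.38). At 6 months 7 were lower and none higher (median -1.11). The gene higher at 7 days was Pgm1 (chr5:64092950-64128158, 8.10 and 17.2 FPKM). Pygm, the muscle glycogen phosphorylase, stood at 174 and 1.84 FPKM and at 1272 and 522 FPKM, and Gys1, the muscle glycogen synthase, at 32.0 and 7.36 FPKM and at 72.3 and 23.8 FPKM. Ugp2, which makes UDP-glucose, stood at 94.9 and 31.5 FPKM and at 152 and 51.7 FPKM. Pgm2 (chr4:99929451-99987294), a phosphoglucomutase, stood at 75.0 and 23.0 FPKM in neonates. The symbols Pgm1 and Pgm2 are as deposited, and the loci tell which gene each one names. In adults the primer protein glycogenin (Gyg) stood at 135 and 43.5 FPKM, and the branching enzyme Gbe1 at 18.9 and 6.20 FPKM. All of these glycogen genes other than Pgm1 were thus lower after tenotomy at the ages given. The other phosphorylase genes lay above sham, within 2-fold, at both ages. Pygb stood at 19.3 and 36.0 FPKM and at 10.5 and 14.3 FPKM, and Pygl at 7.40 and 11.2 FPKM and at 5.08 and 9.26 FPKM. Of 21 further genes of carbohydrate metabolism, 9 of 13 at the floor were lower at 7 days and 6 of 13 at 6 months, and none was higher. Fbp2, the muscle fructose bisphosphatase, stood at 18.6 FPKM in neonatal sham, was listed at 0 after tenotomy, and stood at 18.7 and 8.25 FPKM in adults. Pdhb, a subunit of pyruvate dehydrogenase, stood at 116 and 26.7 FPKM at 7 days and at 76.7 and 30.7 FPKM at 6 months, and Pdk2, another kinase of that complex, at 42.8 and 9.59 FPKM and at 78.3 and 19.1 FPKM. Further subunits of the complex were lower, Dlat in neonates (38.8 and 11.1 FPKM) and Pdha1 at both ages (117 and 49.1 FPKM in neonates, 144 and 63.8 FPKM in adults).

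Of 7 genes of the pentose phosphate pathway, which makes NADPH and ribose from glucose, 6 reached the floor at each age and none was called lower. At the background of 10.3% and 11.9% lower, a count of 0 among so few genes is no result about the pathway. Pgd, its second oxidative step, was called higher at 6 months (12.6 and 28.6 FPKM). The list median was -0.09 at 7 days and 0.52 at 6 months.

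The ages differed mainly through the muscle isoforms. Over 33 members at the floor in any library, the 7-day log2 ratio was lower than the 6-month ratio by at least 1 for 8 members and higher by at least 1 for 4, while 8.82% and 5.64% of 10077 entries differed by as much. The 8 members were the 6 muscle isoforms, Pdk4 and Egln3. The 4 members were Ldhb (1.74), Slc2a3 (1.58), Slc16a3 (1.30) and Slc2a1 (1.24). These differences between ages were not tested, since each rests on 4 single pools.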

How the data were processed

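The data are RNA-seq of 4 pools of mice, 1 per group. Per the labels' protocols, RNA integrity was under 8, ribosomal RNA was depleted, input was 10 ng, the kit kept strand, and reads were paired with 75 bases each. TopHat, Cufflinks and mm10 come from the submitters' processing notes, without versions or settings. The values in the authors' deposited tables were taken as FPKM from the table layout and from Cufflinks being named; the p-values and q-values there are the authors' own, per the file headers, from an exact test after normalization per the labels' protocols. Each table held 23351 entries.

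The members and lists were chosen with earlier results of these data known. Ratios used a pseudocount of 1 FPKM, a floor of 5 FPKM in either library and a call at 2-fold. No test was made. Every member was reported. Other pathway genes were named by rule, up to 4 per list and age with the largest ratios past 2-fold at 10 FPKM or more. Ckb, Vegfa and Pygm were named whatever their values, and Pygb, Pygl and Slc6a8 were added after values were seen. Markers were taken from fixed lists; the muscle markers named beside Ldhb were picked after their values were seen. Depth was inferred from single-transcript genes of at least 800 bases (GENCODE M21), with a fragment length of 200 bases assumed, where 73.6% to 76.7% of low values came out within 0.1 of a whole fragment; fragments behind a value use the longest transcript. Intervals are for counting error only. The locus starts in the tables, which count from 0, are printed counting from 1. The MEF2 motif was widened after the first form matched none of the members. The ratio rule was also run on simulated data with counting error alone, at a fixed depth, and with planted changes larger than the call. Such a run cannot show how the rule handles spread among animals or libraries. Alternatives changed the pseudocount, floor, scaling, status filter and call. Versions were Python 3.11.15, pandas 2.3.3, NumPy 2.4.6 and matplotlib 3.10.9.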

Additional observations from a re-analysis of the deposited data

Results flagged for a closer look

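Gatm, which makes the creatine precursor guanidinoacetate, was lower after tenotomy at 7 days (30.6 and 4.80 FPKM, log2 ratio -2.44) and higher at 6 months (2.06 and 10.7 FPKM, log2 ratio 1.93). It was singled out because the ratios were past 2-fold in opposite directions at the 2 ages. The difference was not tested.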

How the results depend on the processing

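With 1 library per group, no replicate could be left out, and no library could be dropped to recheck the counts. No paired analysis was possible because each group holds 1 pool and its number pairs no samples. The counts of members called and the medians of the muscle isoforms and of the other members were recomputed; those of other lists and the differences between ages were not. They kept within 1.5 times of the printed values, and the medians in sign, under the planned pseudocounts, floors, scalings and status filter, except that 1 member in place of 2 was higher at 7 days with a floor of 20 FPKM. By the authors' deposited call, 3 members were lower and 0 higher at 7 days, and 0 were lower and 0 higher at 6 months. A wider muscle list with Hk2, Aldoa and Pdk4, added after seeing the data, had a 7-day median of -4.13. With a pseudocount of 5 FPKM, the entries called higher dropped to 255 at 7 days and 420 at 6 months. No called member changed direction with the pseudocount or scaling. The calls lost were Pdk1 at 7 days and Slc2a3 at 6 months with a pseudocount of 5 FPKM (-0.93 and -0.52), Slc2a3 at 6 months under all 3 rescalings (-0.98 to -0.88), and at 6 months Pgam2 (-0.93), Eno3 (-0.88) and Ldha (-0.89) under rescaling without muscle genes and small RNAs. Rescaling to a common sum moved the median of all entries at 7 days from 0.01 to 0.18, and rescaling without muscle genes moved it at 6 months from -0.03 to 0.16. Isozyme shares do not change with scaling; adding 1 FPKM to each gene moved the Slc2a4 share after 7-day tenotomy to 10.6% and the Ckm share there to 2.71%. Calls gained were Pgam1 at 6 months (1.01 with a pseudocount of 0.1 FPKM, 1.04 to 1.17 rescaled), Adm at 7 days (1.12 with that pseudocount, 1.08 at a common sum) and Egln3 at 6 months (-1.04 with that pseudocount). Depth limits Aldoc, Adm and the 7-day tenotomy value of Ckm most.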

Other observations

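Among energy-buffering genes outside the set, the muscle forms were lower after tenotomy at both ages. Ckmt2, the mitochondrial creatine kinase of sarcomeric muscle, stood at 98.2 FPKM in 7-day sham, was listed at 0 after 7-day tenotomy, and stood at 153 and 23.3 FPKM at 6 months. Ampd1, the muscle AMP deaminase, stood at 61.7 FPKM in 7-day sham, was listed at 0 after 7-day tenotomy, and stood at 116 and 54.9 FPKM at 6 months. Ckmt2 kept 15.2% of its adult sham level and Ampd1 47.4%. The creatine transporter gene Slc6a8 stood at 16.6 and 19.0 FPKM at 7 days and at 26.3 and 19.1 FPKM at 6 months, within 2-fold. Gamt, the second enzyme of creatine synthesis, stood at 43.9 and 4.87 FPKM in neonates and at 12.6 and 20.9 FPKM in adults; its entry spans a locus far longer than the gene, so reads of neighbours may be in its values. Slc6a8 was picked after its values were seen. Of 11 genes of this list, 4 of 8 at the floor were lower at 7 days, and 2 were lower and 1 higher of 8 at 6 months. Over all entries at the floor, 10.3% were lower and 5.55% higher at 7 days, and 11.9% and 9.62% at 6 months.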
